A study of Mus musculus with 4 samples.

Results

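The keratin genes of mouse embryonic stem cells (ESCs) are described here before and after 24 h of exposure to MS-275. They were taken as every row of the deposited expression tables whose gene symbol was Krt followed by a number and at most 1 letter, which gave 50 of 28250 genes. Keratins are the intermediate filament proteins of epithelial cells. A filament is built from obligate pairs of an acidic type I and a basic type II keratin, and the pair an epithelium uses marks its kind: KRT8 with KRT18 in simple epithelia, KRT5 with KRT14 in the basal layer of the epidermis, KRT1 with KRT10 above it, and further sets in the inner root sheath and shaft of the hair. Apart from Krt18, the mouse type I genes stand in 1 cluster on chromosome 11 and the type II genes in another on chromosome 15, with Krt18 beside its partner Krt8 in the latter. Undifferentiated ESCs make little keratin, and Krt8, Krt18 and Krt19 are known from trophectoderm and other early epithelia.

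The study compared TBV2 mouse ESCs exposed to 5 µM MS-275, a benzamide inhibitor of class I histone deacetylases, with cells given the solvent alone, by sequencing of poly(A)-selected RNA. Each condition had 2 libraries, called replicate 1 and replicate 2 here. Cells of both conditions were grown with leukaemia inhibitory factor, and the labels name both a feeder layer and gelatin-coated plates. The labels name the control agent only as solvent, the names of the alignment files call it ETOH, and the study names DMSO as the vehicle of other assays, so the vehicle was not resolved here. Nothing says that the 2 libraries of a condition came from separate cultures, so p-values measure the spread between these libraries only.

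Values are the normalized expression values that Genomatix gave per gene, and they fell with exon length at a given number of alignments, so levels were compared between genes as values per length. The keratin genes were divided into 5 simple, 15 stratified, 8 inner root sheath, 14 hair shaft and 8 other members, of which 28 are type I and 22 type II. Over the 4 libraries the values of all genes summed to between 2490 and 4359, so a value in one library is not on exactly the same scale as in another. The alignments deposited for these libraries numbered between 9785619 and 23467935. Repeats of a position and strand made up 53.2% and 54.4% of those deposited with replicate 1 and 0% of those deposited with replicate 2, so each position and strand was counted once. The sum of the pluripotency genes was higher in replicate 2 of both conditions, and highest in solvent replicate 2. The 8 genes of that list summed to 5.21 and 17.3 with solvent, replicate 1 first. With MS-275 they summed to 4.26 and 9.42. The headers of the authors' shorter tables call replicate 1 of both conditions OLD. Keratins listed at 0 in replicate 1 of either condition had no exon alignment in the alignment file deposited with replicate 2, whereas 5 of the 20 at 0 in solvent replicate 1 had alignments in that library's own file. Zeros in the values thus matched the alignment file of the opposite replicate. Conditions and pairs stay the same under this exchange, and alignments are given below under the replicate they were deposited with.

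All keratin genes together were a small part of the transcriptome. Values are given throughout for replicate 1 and then replicate 2. Those of the keratin genes summed to 0.369 and 0.221 with solvent and to 0.607 and 0.492 with MS-275. Both MS-275 sums lay above both solvent sums. As a share of the summed value of all genes they were 0.0148% and 0.00609% with solvent and 0.0244% and 0.0113% with MS-275, which overlap between the conditions, although the share was higher with MS-275 in each pair. With 2 libraries against 2, an exact two-sided permutation test of such a sum cannot give a p below 0.333. The simple keratins held 40.7% and 39.9% of the keratin sum in the solvent libraries and 54.1% and 54.5% in the MS-275 libraries. The stratified keratins summed to 0.0790 and 0.0446 with solvent and to 0.0869 and 0.0813 with MS-275. The inner root sheath keratins went from 0.00769 and 0.00502 to 0.0405 and 0.0260, a low level that did not overlap between the conditions. The number of keratin genes at 0.001 or more was 18 and 17 with solvent and 32 in each MS-275 library. Over all genes it was 18963 and 18194 with solvent and 20814 and 20018 with MS-275, also without overlap. A change in the number of cells that make a keratin and a change in its RNA per cell cannot be told apart in these bulk libraries.

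**Figure D1:**
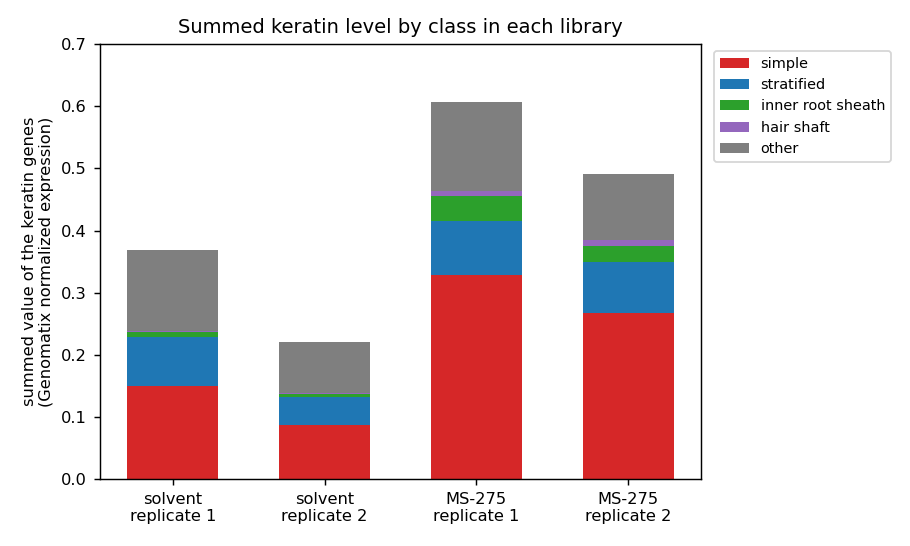
Summed values of the keratin genes (vertical axis, Genomatix normalized expression) in each of the 4 libraries, with the bar divided by keratin class. The bars reach 0.369 and 0.221 for solvent and 0.607 and 0.492 for MS-275, and the simple keratins are the largest class in each bar.

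A gene was tested where its value was at least 0.001 in at least 2 libraries. This kept 28 keratin genes, and 7 of them reached that level only through the 2 MS-275 libraries, so their groups had to differ. The test was limma with Benjamini-Hochberg adjustment over all 20336 genes tested, on log2(value + 0.005), which understates the change of low genes. Without a term for the replicate pairs, 0 keratin genes were called higher, beside 0.00492% of all genes, and 0 lower, beside 0% of all genes. At an unadjusted p under 0.05, limma gave 10 keratin genes higher, beside 14.6% of all genes, and 0 lower, beside 2.77%. In the deposited alignments, counted as distinct positions and tested with limma-voom without the block, 17 keratin genes could be tested, 6 were called higher, beside 15.1% of all genes, and 1 lower, beside 5.11%. With the replicate number as a block, 13 keratin genes passed as higher, beside 21% of all genes, and 1 as lower, beside 6.46%. With limma-voom and the same block 13 of the 17 were called higher, beside 29.7% of all genes, and 1 lower, beside 13.9%. Of those 13, 12 were among the 13 called from the values, and the other was Krt80. Positions were tested for genes with at least 10 of them in 2 libraries. Krt20, Krt5, Krt75, Krt12, Krt28 and Krt80 met this position filter only through the MS-275 libraries, so their groups had to differ. All of them are among the genes called higher from positions with the block, and Krt20, Krt5 and Krt75 among those called without it. Both MS-275 values lay above both solvent values in 20 of the 28, beside 32.3% of all genes tested, and below them in 1, beside 12%. The 7 members that passed the filter only through MS-275 had to lie above. Without such genes, an alternative added after the data were seen, 13 of 21 keratin genes lay above, beside 28.6% of all genes, and 10 of 21 were called higher with the block, beside 19.3%. The median log2 fold change of the 28 was 0.66, and that of all genes tested 0.20.

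The scaling of the libraries moved these numbers. Median-ratio scaling brought the median of all genes to -0.01 and quantile normalization to -0.03. Under the block, all genes then split into 3379 higher and 2864 lower with median-ratio scaling and 2936 higher and 2961 lower with quantile normalization, in place of 4277 and 1314. The keratin calls became 11 higher and 1 lower with median-ratio scaling. With quantile normalization they were 5 higher, which were Krt18, Krt20, Krt23, Krt5 and Krt79, and 3 lower, which were Krt42, Krt7 and Krt17. The median of the tested keratin genes stayed above that of all genes under both scalings, at 0.52 and 0.25.

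Among the simple keratins, Krt18 (Entrez 16668, mm9 chr15:101858647-101862457, plus strand) had the highest level with MS-275. It was listed at 0.0394 and 0.0332 with solvent and at 0.156 and 0.130 with MS-275. The 2 conditions did not overlap, and the difference was several times the spread within either of them: the means were 0.0363 ± 0.00441 (SD, n = 2) and 0.143 ± 0.0185 (SD, n = 2). In rank, Krt18 stood at the percentiles 61.9 and 64.7 of all genes with solvent and 78.5 and 78.7 with MS-275. This was a log2 fold change of 1.84, for which limma gave an adjusted p of 0.0786 (SE 0.44) without the block and of 6.37e-05 (SE 0.24) with it. Its exons carried 86 and 56 distinct alignment positions with solvent and 191 and 249 with MS-275.

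Krt8 (Entrez 16691, mm9 chr15:101827142-101834773, minus strand), which encodes the type II partner of KRT18, was listed at 0.0104 and 0.00449 with solvent and at 0.0341 and 0.0130 with MS-275. MS-275 replicate 2 lay close above solvent replicate 1, so the conditions did not overlap only by a small margin. The log2 fold change was 1.13, with a limma adjusted p of 0.419 without the block and 0.0121 with it, and under quantile normalization with the block it did not pass (adjusted p 0.157). The value of Krt18 was 3.81 and 7.39 times that of Krt8 in the solvent libraries and 4.57 and 10.01 times in the MS-275 libraries. Only 35.8% of the 35-base words on the exons of Krt8 occur once in the mm9 genome, the lowest share among the keratin genes, against 92.5% for Krt18, and whether this lowers the value of Krt8 was not tested.

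Krt19, a type I keratin of many simple epithelia, was listed at 0.0522 and 0.0259 with solvent and at 0.0766 and 0.0680 with MS-275. Its log2 fold changes in the 2 replicate pairs were 0.51 and 1.24. It passed with the block (limma adjusted p 0.0286) and not without it (0.487), nor with the block under median-ratio or quantile scaling. Krt20, a type I keratin of intestinal and bladder epithelium, had the largest change of the tested members on the scale used here. It was listed at 0.000530 and 0.00939 with solvent and at 0.0404 and 0.0440 with MS-275. The solvent libraries thus differed widely from each other, and both MS-275 libraries lay above them. The log2 fold change was 2.40, with a limma adjusted p of 0.101 without the block and 0.000121 with it.

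Krt7, the type II keratin of ducts and of the urothelium, was the simple keratin that was not higher. It was listed at 0.0478 and 0.0151 with solvent and at 0.0217 and 0.0132 with MS-275. Solvent replicate 1 stood above the other 3 libraries, the conditions overlapped, and neither limma fit passed (adjusted p 0.802, and 0.215 with the block). Without solvent replicate 1 its log2 fold change of -0.56 turned to 0.14. Of the 5 simple keratins, 4 were thus called higher with the block, beside 21% of all genes. The median log2 fold change of the 5 was 1.13.

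**Figure D2:**
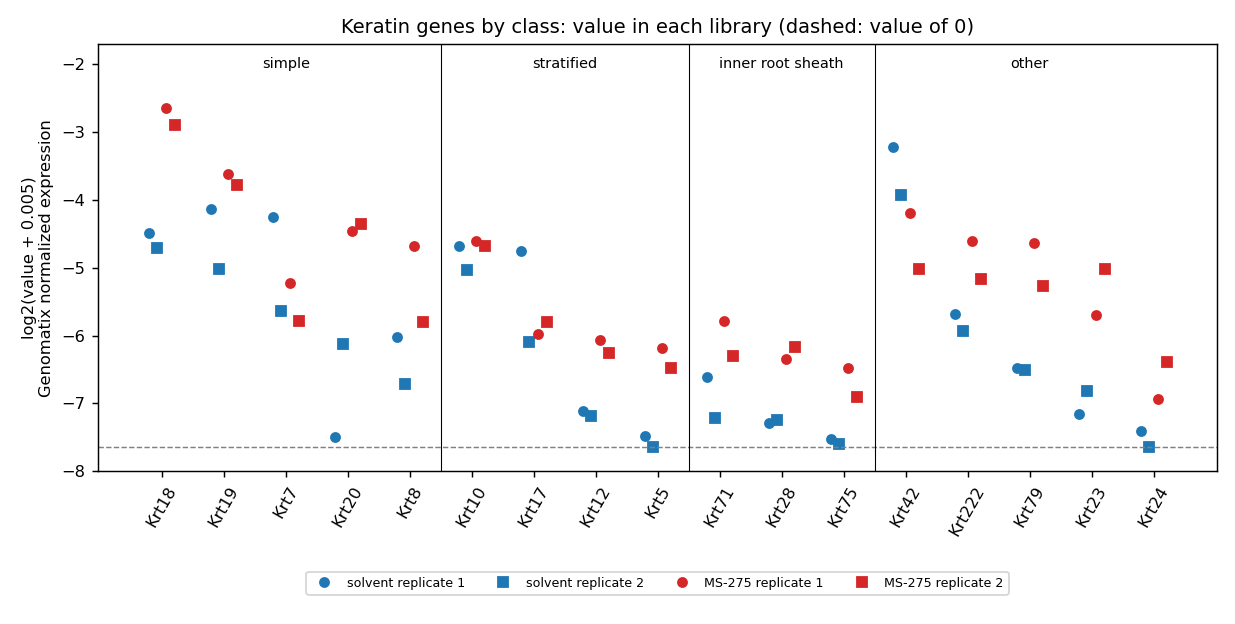
Value of each keratin gene that was named in full, as log2(value + 0.005) on the vertical axis, in every library, with circles for replicate 1, squares for replicate 2, blue for solvent and red for MS-275. Krt18, Krt20 and Krt79 show both MS-275 points well above both solvent points, Krt42 shows both below, and Krt7 and Krt17 overlap.

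The stratified keratins, which build the filaments of layered epithelia such as the epidermis and cornea, were mostly near the floor. Of 15 members 11 were tested, 2 were called higher with the block, a share no larger than the 21% of all genes, and the median log2 fold change was 0.33. Krt10, expressed above the basal layer of the epidermis, was the highest of them and hardly differed, with 0.0339 and 0.0257 with solvent and 0.0361 and 0.0342 with MS-275. That is a log2 fold change of 0.22 (limma adjusted p 0.930, and 0.623 with the block), and its sign turned under median-ratio and quantile scaling. Krt17, a keratin of hair follicles and injured epidermis, was listed at 0.0320 and 0.00959 with solvent and at 0.0109 and 0.0129 with MS-275. As for Krt7, solvent replicate 1 stood alone, and the log2 fold change of -0.46 became 0.21 without it. Krt12, the keratin of the corneal epithelium, had values of 0.00221 and 0.00190 with solvent and 0.00992 and 0.00812 with MS-275 (log2 fold change 0.99, limma adjusted p 0.160, and 0.00921 with the block). Krt5, the basal type II keratin, was listed at 0.000580 and 0 with solvent and at 0.00878 and 0.00619 with MS-275 (log2 fold change 1.23, limma adjusted p 0.0674, and 0.00109 with the block). It is one of the 7 members that passed the filter only through the MS-275 libraries, and its exons carried 0 and 1 alignment positions with solvent and 14 and 22 with MS-275.

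Further keratins of the epidermis did not pass. Krt14, the basal type I partner of Krt5, had values of 0.000910 and 0.00291 with solvent and 0.00245 and 0.00795 with MS-275, which overlapped (log2 fold change 0.52, limma adjusted p 0.116 with the block). Krt15, a further basal type I keratin, was listed at 0 and 0.00247 with solvent and at 0.00665 and 0.00241 with MS-275, with an adjusted p of 0.112 with the block. Krt1, the type II partner of Krt10 and named here for that reason, was at 0.00334 and 0.000700 with solvent and at 0.00150 and 0.00204 with MS-275, a log2 fold change of -0.03 whose sign depended on the processing. The remaining stratified members stayed at or under 0.00443 in every library, and Krt6a was listed at 0 in all 4. Part of the exon sequence of Krt14, Krt16, Krt6a and Krt6b is shared with other loci, so their values are uncertain.

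The inner root sheath keratins, which support the layers around the growing hair, were low in every library. Of 8 members 5 were tested, 2 of these only through the MS-275 libraries. With the block 3 were called higher, beside 21% of all genes. Krt71 was listed at 0.00520 and 0.00174 with solvent and at 0.0131 and 0.00763 with MS-275 (limma adjusted p 0.0246 with the block). Krt28 was listed at 0.00137 and 0.00158 with solvent and at 0.00734 and 0.00894 with MS-275 (adjusted p 0.00617 with the block). Krt75 was listed at 0.000460 and 0.000190 with solvent and at 0.00620 and 0.00338 with MS-275 (adjusted p 0.00938 with the block), and passed the filter only through the latter. In these 3 called genes both MS-275 libraries lay above both solvent libraries, as in 32.3% of all genes tested, and Krt75 had to. Their log2 fold changes were 0.87, 1.02 and 0.86. Krt27 had values of 0.000660 and 0.00111 with solvent and 0.00833 and 0.00195 with MS-275, and Krt25 of 0 and 0 with solvent and 0.00111 and 0.00242 with MS-275, and neither passed. The gene listed as Krt72-ps lay outside the naming rule and is Krt72 in RefSeq. Its values were 0.00143 and 0.000600 with solvent and 0.0164 and 0.0154 with MS-275.

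The hair shaft keratins, the hard keratins of the hair cortex and cuticle, were near the floor. They summed to 0.00101 and 0.00085 with solvent and to 0.00717 and 0.00901 with MS-275, which did not overlap. None of the 14 passed the filter, and 5 of them (Krt31, Krt32, Krt33b, Krt39 and Krt86) were listed at 0 in every library. No hair shaft member reached 0.001 with solvent, and 2 and 3 did so in the MS-275 libraries. The highest values, chosen after they were seen, were 0.00357 for Krt82 in MS-275 replicate 2 and 0.00301 for Krt83 in MS-275 replicate 1, where the other MS-275 library had 0.000440 and 0. With solvent Krt82 was at 0 in both libraries and Krt83 at 0 and 0.000320. Their partners in hair, the keratin-associated proteins, were as low: of 52 genes 38 were listed at 0 in all libraries, 3 were tested, and 0 were called by limma with the block or without it, nor did any have an unadjusted p under 0.05.

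Of the 8 other members 7 were tested, 4 were called higher with the block and 1 lower, beside 21% and 6.46% of all genes. Krt42, a type I keratin gene at the far end of the chromosome 11 cluster (Entrez 68239, mm9 chr11:100124196-100131185, minus strand), was the highest keratin of the solvent libraries and the only member called lower with the block, except under quantile normalization, where Krt7 and Krt17 were called lower too. It was listed at 0.102 and 0.0606 with solvent and at 0.0495 and 0.0260 with MS-275. The conditions did not overlap, although solvent replicate 2 and MS-275 replicate 1 lay close together. The log2 fold change was -1.03, with -0.98 and -1.08 in the 2 pairs, and the limma adjusted p was 0.402 without the block and 0.00852 with it. Its exons carried 114 and 112 distinct alignment positions with solvent and 43 and 56 with MS-275.

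Krt79, a type II keratin of sebaceous ducts, was listed at 0.00626 and 0.00596 with solvent and at 0.0353 and 0.0210 with MS-275 (log2 fold change 1.54, limma adjusted p 0.207, and 0.00185 with the block). Krt23, a type I keratin of several glandular epithelia, was listed at 0.00201 and 0.00388 with solvent and at 0.0143 and 0.0260 with MS-275 (log2 fold change 1.63, limma adjusted p 0.127, and 0.000679 with the block). Both genes kept the conditions well apart. Krt222, a keratin-related gene, was listed at 0.0146 and 0.0114 with solvent and at 0.0363 and 0.0229 with MS-275 (log2 fold change 0.93, limma adjusted p 0.0359 with the block). Krt24 was listed at 0.000880 and 0 with solvent and at 0.00316 and 0.00691 with MS-275, with an adjusted p of 0.0148 with the block, and it too passed the filter only through the MS-275 libraries. Of the rest of this class the 2 largest changes, in Krt80 and Krt77, were log2 fold changes of 0.45 and 0.35 and did not pass from the values. On alignment positions Krt80 passed with the block (log2 fold change 1.62, adjusted p from limma-voom 0.0320). Its exons carried 4 and 5 positions with solvent and 16 and 12 with MS-275. It thus met the position filter only through the MS-275 libraries, and its groups had to differ.

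**Figure D3:**
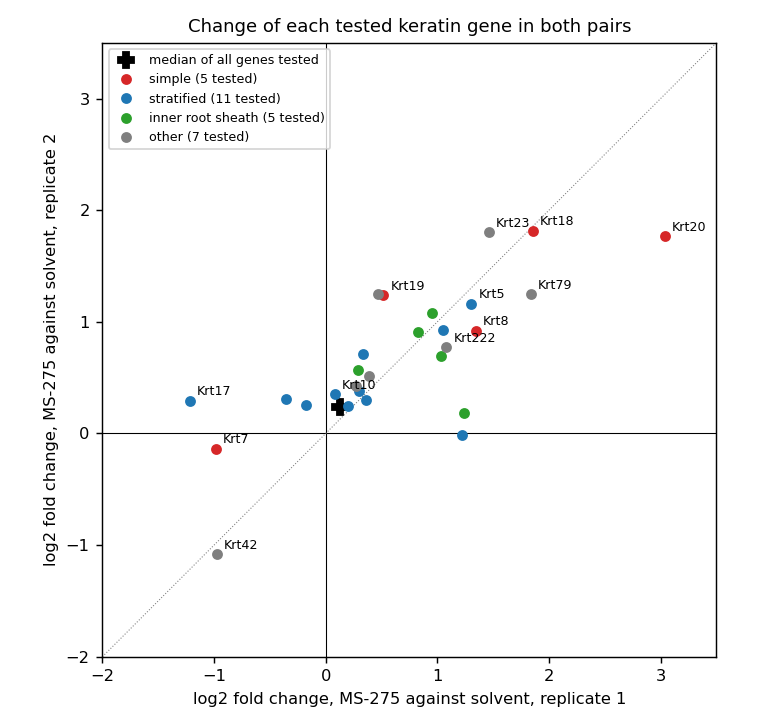
Log2 fold change of MS-275 against solvent in replicate 1 (horizontal) and replicate 2 (vertical) for the 28 tested keratin genes, coloured by class, with the median of all genes tested as a cross. Krt18 and Krt42 lie near the dotted line of equal change at opposite ends, and Krt17 lies on opposite sides of 0 in the 2 pairs.

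The 2 keratin types were set side by side. Of 28 type I genes 18 were tested, with 8 called higher and 1 lower with the block. Of 22 type II genes 10 were tested, with 5 called higher and 0 lower. Over all genes the shares were 21% and 6.46%. Of the tested genes, 3 of type I and 4 of type II passed the filter only through MS-275, so their groups had to differ. Among those called higher, these were Krt24 of type I and Krt5 and Krt75 of type II. The median log2 fold change was 0.66 in each keratin type. On alignment positions without the block it was 1.35 for 10 type I and 1.62 for 7 type II genes. Of these 2 and 4 were called higher, beside 15.1% of all genes. Among the called genes, Krt20 of type I and Krt5 and Krt75 of type II met the position filter only through MS-275. In level, type I genes held 78.1% and 86.4% of the keratin sum with solvent and 77.8% and 83.8% with MS-275. The difference between the types was not tested.

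The change also varied within each cluster. In the type I cluster (mm9 chr11:99094075-100131185) the 17 tested members had a median log2 fold change of 0.60. All of those called higher except Krt19 stood at the Krt222 end, from Krt222 to Krt23, while Krt16, Krt17 and Krt42 at the other end had 0.04, -0.46 and -1.03, of which the first 2 changed sign under other settings. In the type II cluster (mm9 chr15:101177875-101862457), which includes Krt18, the 11 tested members had a median of 0.86, and Krt7 was the member with the lowest change. Called and uncalled members stood side by side: Krt10, which did not pass, lies between Krt28 and Krt12, which did.

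**Figure D4:**
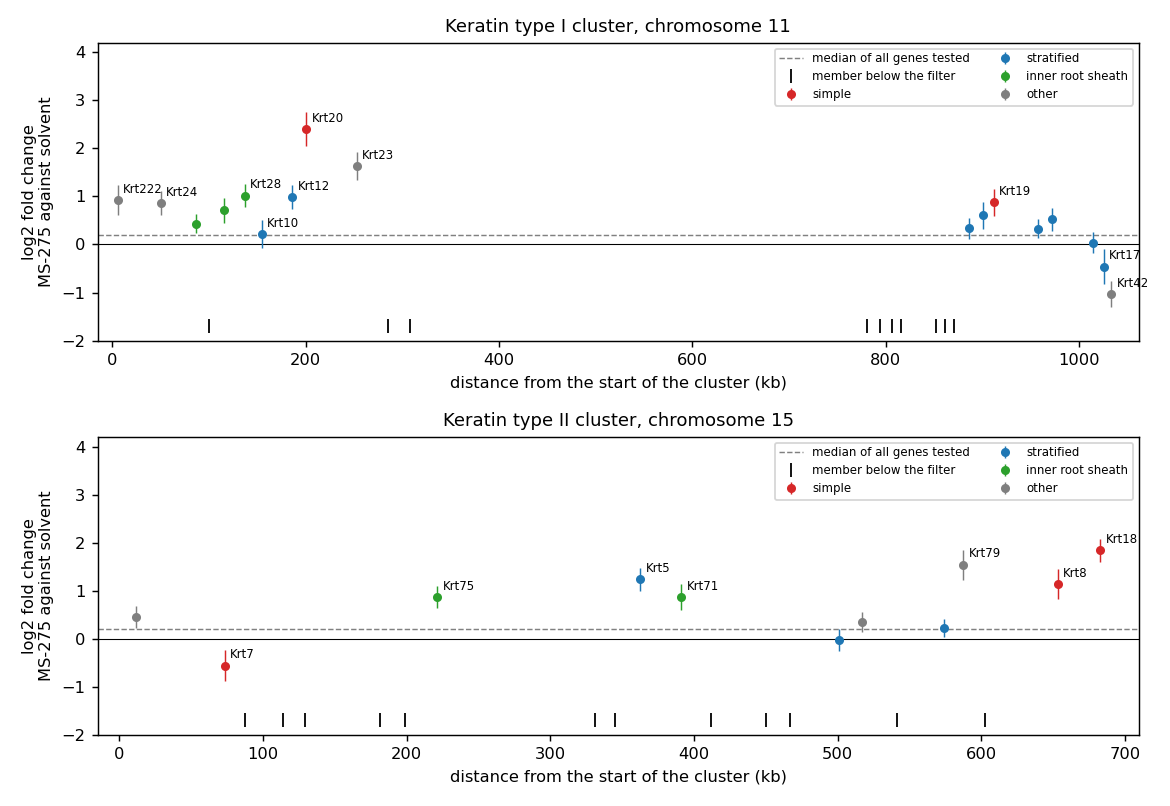
Log2 fold change of MS-275 against solvent (vertical axis) of each tested keratin gene by its distance in kb from the start of its cluster, with bars of 1 SE from the limma fit with the replicate block, and ticks for members below the filter. The dashed line is the median of all genes tested, 0.20, and the lowest points are Krt42 in the upper panel and Krt7 in the lower.

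Alignments between the annotated genes of the clusters were also more frequent with MS-275. In the type I cluster they covered 13.9 and 8.58 distinct positions per 1000000 of a library with solvent and 71.9 and 40.9 with MS-275, which is 5.16 and 4.76 times as many in the 2 pairs as deposited. In the type II cluster they covered 3.92 and 4.60 per 1000000 with solvent and 18.4 and 13.1 with MS-275, or 4.70 and 2.85 times as many. Over all autosomes the same ratio was 1.40 and 1.11. In keratin introns the ratio was 1.95 and 1.45 for the type I cluster and 6.14 and 2.61 for the type II cluster, against 0.930 and 0.964 for all autosomal introns. The type II ratios rest on few intron positions, 19 and 23 with solvent and 97 and 67 with MS-275. Of these, Krt18 alone held 4 and 5 with solvent and 46 and 6 with MS-275. Much of the type I signal lay in 1 stretch of 40 kb among the keratin-associated protein genes, picked out after the values were seen, and outside it the ratio was 3.20 and 2.89. These regions have no replicate test beyond the 2 pairs, in both of which the MS-275 library was higher.

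**Figure D5:**
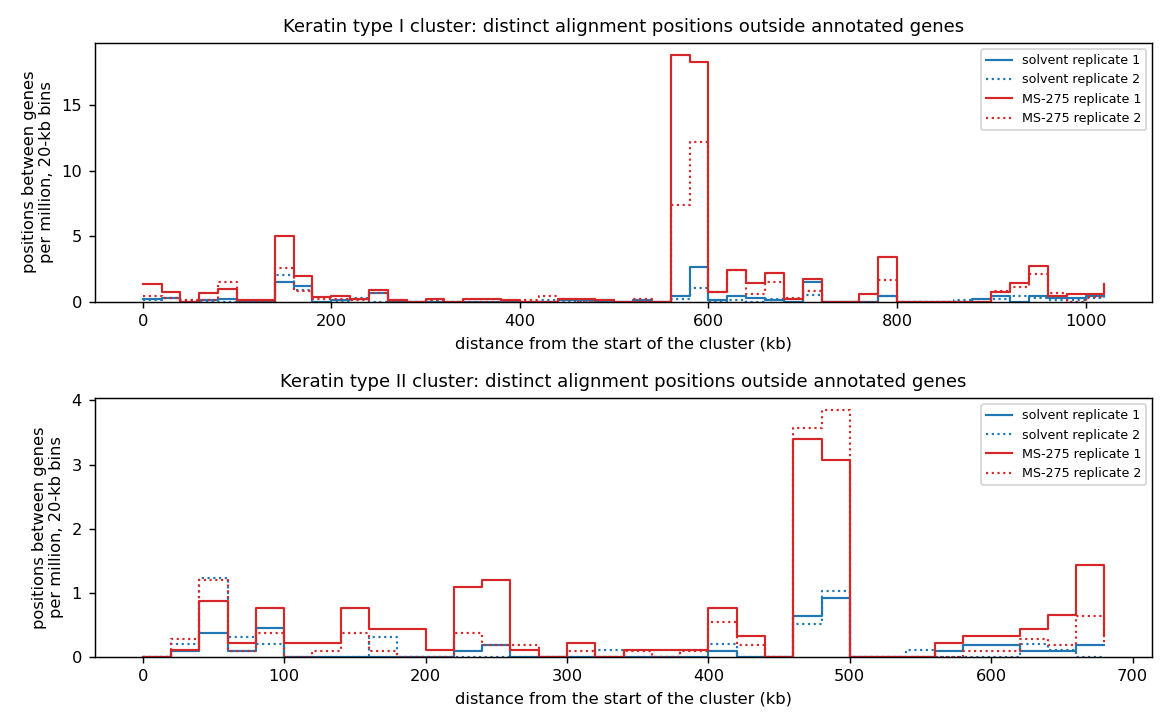
Distinct alignment positions outside annotated genes per 1000000 positions of the library (vertical axis) in 20-kb bins along the 2 keratin clusters, with solid lines for replicate 1 and dotted lines for replicate 2. Both MS-275 libraries peak in 2 neighbouring bins of the type I cluster, 560 and 580 kb from its start.

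The 250 bases before the RefSeq gene start (GRCm38.p6) were available for 34 of the 50 keratin genes, Krt19 and Krt80 not among them. They are shown for Krt18 and Krt8, neighbours that encode partners, for Krt20 with the largest change, for Krt28 of the inner root sheath and for Krt42, which went the other way. All are written 5′ to 3′ on the strand of the gene, and capitals mark the TATA box letters TATAAA, the letters GGGCGG that Sp1 is known to bind and the AP-1 letters TGACTCA, all read on both strands. These motifs do not overlap in the sequences shown.
Krt18 (chr15:102027966-102028215, plus strand): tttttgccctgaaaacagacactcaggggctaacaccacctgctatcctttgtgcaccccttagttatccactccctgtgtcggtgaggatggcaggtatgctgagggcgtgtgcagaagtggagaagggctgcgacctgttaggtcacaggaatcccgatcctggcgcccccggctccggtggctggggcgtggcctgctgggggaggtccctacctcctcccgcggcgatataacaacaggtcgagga
Krt8 (chr15:102004343-102004592, minus strand): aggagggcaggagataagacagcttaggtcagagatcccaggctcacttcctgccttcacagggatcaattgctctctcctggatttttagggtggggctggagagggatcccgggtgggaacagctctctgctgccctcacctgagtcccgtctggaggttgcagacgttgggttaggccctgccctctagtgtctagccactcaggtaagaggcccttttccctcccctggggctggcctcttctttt
Krt20 (chr11:99438154-99438403, minus strand): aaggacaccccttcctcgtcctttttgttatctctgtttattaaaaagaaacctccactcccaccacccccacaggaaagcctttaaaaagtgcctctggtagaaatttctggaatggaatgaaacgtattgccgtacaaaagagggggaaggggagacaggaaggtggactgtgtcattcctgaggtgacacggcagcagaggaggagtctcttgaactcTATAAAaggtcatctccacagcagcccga
Krt28 (chr11:99374904-99375153, minus strand): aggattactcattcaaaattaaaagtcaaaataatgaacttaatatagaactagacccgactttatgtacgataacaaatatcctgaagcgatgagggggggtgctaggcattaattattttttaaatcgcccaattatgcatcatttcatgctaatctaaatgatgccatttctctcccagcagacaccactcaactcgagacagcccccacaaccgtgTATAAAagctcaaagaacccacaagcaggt
Krt42 (chr11:100269952-100270201, minus strand): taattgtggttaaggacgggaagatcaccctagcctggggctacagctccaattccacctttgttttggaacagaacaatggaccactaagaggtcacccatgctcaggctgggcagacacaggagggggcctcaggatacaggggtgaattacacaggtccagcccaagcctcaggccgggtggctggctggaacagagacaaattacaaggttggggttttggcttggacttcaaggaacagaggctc

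TATAAA stood at position -29 from the start in Krt20 and at -30 in Krt28, and none of the 3 motifs was in the windows of Krt18, Krt8 and Krt42. TATAAA was found in 16 of the 34 keratin windows, or 47.1%, against 12.97% of 27025 windows of the same length over all genes. By class it was in 6 of 7 inner root sheath, 6 of 9 hair shaft, 3 of 8 stratified, 1 of 4 simple and 0 of 6 other members. GGGCGG was in 2 of the 34, Krt7 and Krt75, or 5.88%, against 32.9% of all windows, and TGACTCA in 0, against 4.43%. Of the 12 keratin genes with a window that were called higher or lower with the block, 4 held TATAAA, and of the other 22, 12 did. The median number of CpG dinucleotides in a window was 3.5 for the keratin genes and 6 for all genes. A window without a match shows only that these letters are absent from it.

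Other intermediate filament genes were compared as the nearest relatives. All 15 were tested, with a median log2 fold change of 0.77. With the block 9 were called higher and 0 lower, beside 21% and 6.46% of all genes. The largest change was in Nefm, which encodes the medium neurofilament protein and went from 0.00750 and 0.00533 to 0.0947 and 0.192. Bfsp2 of the lens, Nes of neural progenitors and Nefl, the light neurofilament gene, followed with log2 fold changes of 2.43, 2.29 and 1.65. Desmosomes and plakins anchor keratin filaments at the cell membrane. Of these 19 genes 14 were tested, 4 were called higher with the block and 2 lower, beside 21% and 6.46% of all genes, with a median of 0.47. Pkp2, a plakophilin of the desmosomal plaque, went from 0.175 and 0.0904 to 0.452 and 0.456, and Ppl and Pkp1 were also higher, while Dsg2, a desmosomal cadherin, had a log2 fold change of -0.85.

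Transcription factors known to act on keratin genes formed a list of 25, of which 24 were tested, with a median log2 fold change of 0.69. With the block 11 were called higher and 1 lower, beside 21% and 6.46% of all genes. Of the 24, 3 passed the filter only through the MS-275 libraries, so their groups had to differ. Cebpa, a factor of adipocytes, liver and skin, went from 0.0176 and 0.00586 to 0.167 and 0.119. Dlx3, a homeobox factor of placenta and hair follicle, went from 0.00392 and 0.00458 to 0.0436 and 0.116. Tcfap2b, an AP-2 factor, was listed at 0.000900 and 0 with solvent and at 0.0153 and 0.0377 with MS-275. It passed the filter only through the MS-275 libraries. Msx2, a homeobox factor of ectoderm, followed with a log2 fold change of 1.65. From the values all 4 passed with the block and none without it, and from the alignment positions all 4 passed without the block too.

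Markers of cell types that ESC cultures can hold were measured beside the keratins. For the counts below, 21% of all genes tested were called higher with the block and 6.46% lower. The 10 markers of fibroblasts, the cells of a feeder layer, summed to 0.314 and 0.272 with solvent and to 0.594 and 0.633 with MS-275, none was at 0 in any library, and 6 of 10 were called higher with the block and 0 lower, among them Col1a1 with a log2 fold change of 2.41. Col3a1 and Dcn were lower in both pairs, with log2 fold changes of -0.52 and -0.72, and Postn had 0.11, none of them called. The 7 trophectoderm markers, of which 5 are also in the list of transcription factors, summed to 0.357 and 0.339 with solvent and to 0.386 and 0.280 with MS-275, with 3 called higher, Elf5, Cdx2 and Gata3, and 1 lower, Tead4. Elf5 and Cdx2 passed the filter only through the MS-275 libraries, so their groups had to differ. Cdx2 and Gata3 were at 0 in solvent replicate 1. The 7 primitive endoderm markers summed to 0.249 and 0.0549 with solvent and to 0.378 and 0.0931 with MS-275, and of them Sox17 was called higher and 0 lower. The sums of the trophectoderm and primitive endoderm lists overlapped between the conditions. The 12 markers of epidermis and surface ectoderm, 6 of them also in other lists, summed to 0.383 and 0.215 with solvent and to 0.405 and 0.333 with MS-275, which overlapped too. Of these 9 were tested, 3 were called higher and 1 lower, and Ivl, which encodes involucrin, was at 0 in every library. Krtdap, a gene of differentiating keratinocytes, had the largest change in that list, from 0 and 0.00531 to 0.0202 and 0.0424. The 8 pluripotency genes were all lower in both pairs, beside 5397 of all 20336 genes tested. Of the 8, 3 (Utf1, Esrrb and Pou5f1) were called lower with the block. The part of these cell types in the keratin values was not tested.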

How the data were processed

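RNA was measured in 4 libraries, 2 of TBV2 ESCs with solvent and 2 with 5 µM MS-275 for 24 h. Per the paper's methods the authors mapped short Illumina reads to mm9 and obtained normalized expression values from Genomatix. These deposited values, a length-related signal per gene whose formula is not given in the sources used here, carry no counts, and the aligner is not given either. The deposited alignments, 35-base intervals in genome coordinates, were assigned to GENCODE M1 exons, each position and strand counted once. The authors' ratio tables were not used.

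Values were tested with limma 3.58.1 in R 4.3.3 (empirical Bayes with trend) on log2(value + 0.005), for genes at 0.001 or more in at least 2 libraries, with an adjusted p threshold of 0.05. Replicate numbers pair the libraries, because the headers of the authors' shorter tables mark both replicate 1 libraries as OLD; deviations from the condition means correlated at 0.764 over 20336 genes. limma-voom was run on genes with at least 10 positions in 2 libraries. On simulated data with 200 genes changed by 2 on the log2 scale, the fit recovered some genes without the block and nearly all with it. A replicate effect taken from the fit with the block was built into these data. They therefore cannot decide whether the block suits the real libraries. Promoter sequences were from RefSeq. The simple keratins, every member with a mean of at least 0.01 and every member past the threshold in either fit were named with all values, the rest by class with the 2 largest changes, and other lists with at most 4 genes by size of change. The members and lists were chosen with earlier results of these data known. Alternatives were other pseudocounts, filters, scalings, the block, alignment counts and leaving out each library.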

Additional observations from a re-analysis of the deposited data

Results flagged for a closer look

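One signal lay outside the gene values. In the type I keratin cluster, a 40-kb stretch without an annotated keratin gene (mm9 chr11:99654075-99694074), chosen after its values were seen, held distinct alignment positions between annotated genes above the solvent level. There were 339 in the first and 214 in the second of the MS-275 libraries, against 34 and 12 with solvent. Per 1000000 positions of a library this was 3.10 and 1.23 with solvent and 37.2 and 19.6 with MS-275. The annotated genes in the stretch are Gm11596, Gm11569, Gm11554, Krtap4-13 and Gm11564, and values are listed for Gm11596, with 0 and 0.00185 with solvent and 0.00795 and 0.00506 with MS-275, and for Krtap4-13. The latter was listed at 0 in 3 libraries and at 0.00123 in MS-275 replicate 2. Only 38.2% of the 35-base words of the stretch occur once in the genome, and every one of the counted positions stood at such a word. These alignments lie outside the genes of GENCODE M1, and whether a Genomatix locus covers them was not tested. The difference was not tested beyond the 2 pairs.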

How the results depend on the processing

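The count of keratin genes called turned on the replicate block. Without it 0 were called higher and 0 lower; this held with other pseudocounts, no filter, no trend, median-ratio and quantile scaling, and on leaving out any 1 library (0 to 0 in each direction). A filter on a mean of at least 0.01 gave 1 higher (Krt20), and alignment positions 6 higher and 1 lower. With the replicate block 13 were higher and 1 lower. The block with a pseudocount of 0.001 gave 14 and 1, with 0.02 it gave 12 and 1, and with the mean filter, which left fewer genes, 7 and 1. The block gave 11 and 1 with median-ratio scaling, 5 and 3 with quantile normalization, and 13 and 1 on alignment positions. The cause of these differences was not tested. The sign of Krt10 turned with median-ratio scaling (-0.030) and quantile normalization (-0.17), with the block or without it. Leaving out 1 library moved Krt7 between -1.26 and 0.14 and Krt17 between -1.13 and 0.21, both above 0 without solvent replicate 1. Krt1 turned to 0.021 with a pseudocount of 0.001, with the block or without it, and ranged from -0.30 to 0.25 on leaving out 1 library, above 0 without solvent replicate 1 or MS-275 replicate 1. Krt16 turned to -0.23 with quantile normalization, with the block or without it, and ranged from -0.13 to 0.20 on leaving out 1 library, below 0 without solvent replicate 2 or MS-275 replicate 2. The other 20 keratin genes recomputed kept their direction under each setting that gave them a value. The median of the stratified class was -0.12 with the mean filter, which left it 2 genes. Krt18, Krt42, Krt20, Krt79 and Krt23 passed in all 7 fits with a block.

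Leaving out a library keeps no complete second pair, so the block could not be tried there. Values of low genes rest on few reads, such as 0 to 22 alignment positions for Krt5, and an absent hair keratin cannot be told from one below this depth. Exon sequence shared with other loci adds to this for members such as Krt31, Krt33b and Krt86.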
